A study of Mus musculus with 16 samples.

Results

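The genes described here are 43 mouse genes of autophagy and mitophagy, named from textbook knowledge of the pathway and sorted into 7 roles. All 43 were found by symbol among the 46078 genes of the count table. Their RNA was measured in pools of 30 HSCs, gated as LSK CD48-CD150+ cells from long bones of mice on the C57/Bl6 strain. Cells came either from the endosteal BM, which is the bone fraction of the labels, or from the central BM, which is the marrow fraction. Donors were WT mice or Gfra2-/- mice, which lack the receptor GFRα2, and the labels name no cell type or inducing agent to which this loss is limited. The 4 groups were WT endosteal (n = 4 libraries), WT central (n = 4), Gfra2-/- endosteal (n = 4) and Gfra2-/- central (n = 3), all from untreated mice whose age is not given in the sources used here.

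Autophagy is the process by which a cell encloses part of its own content in a double membrane, the autophagosome, and degrades it in the lysosome. The ULK kinase complex starts it, the VPS34 lipid kinase complex marks the membrane with the lipid PI3P, ATG2, ATG9 and the WIPI proteins supply and read that membrane, and a conjugation system attaches small proteins of the ATG8 family (LC3 and GABARAP) to it. Cargo receptors hold ubiquitinated cargo against ATG8, and mitophagy receptors do the same for mitochondria. HSCs keep few active mitochondria, and loss of core autophagy genes in blood cells is known to deplete them. Autophagy is set largely by protein modification, so RNA levels measure the supply of the machinery and not its activity.

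Libraries held 826487 to 18550008 reads on genes. The WT central libraries were the shallowest, with 826487 to 3367289 reads, against 4416648 to 18550008 in the other 3 groups. Counting all reads that aligned once, on genes or not, the range was 1494725 to 33274097. Libraries are called A to D within a group, in the order of the table. Each of 12 HSC marker genes had counts in every library. Their summed level was 3065 to 4583 CPM in WT endosteal and 2661 to 4480 CPM in WT central libraries. In libraries labelled Gfra2-/- it was 3571 to 3975 CPM in endosteal and 4205 to 5032 CPM in central HSCs, which did not overlap. Between these 2 groups 9 of the 12 markers were lower in endosteal HSCs, and 0 passed an FDR of 0.1 in edgeR. DESeq2 called 1, lower in endosteal HSCs, against 1.22% of all genes. Library D of WT central also held RNA of neutrophil genes, with 864 CPM of S100a8, 796 CPM of S100a9 and 667 CPM of Camp, and library D of Gfra2-/- endosteal held RNA of lymphoid genes, with a summed 1852 CPM over the 10 lymphoid markers, against 34.2 to 84.05 CPM in the other libraries of its group. The 9 erythroid markers summed to 683 CPM in that library, against 30.9 to 174 CPM in the other 3 of its group. Counts on Gfra2 itself were 0 to 4 in the 8 WT libraries, 0, 1 and 0 in the libraries labelled Gfra2-/- central, and 2, 47, 1 and 9 in libraries A to D labelled Gfra2-/- endosteal. As CPM of the reads on genes, without further scaling, this was 2.53 in library B and 0.751 in library D of that group, and 4.84 in the 1 WT central library with counts, library C. Gfra2 was thus near or at 0 in both genotypes and does not check the labels, and the genotype is used below only as the label gives it.

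CPM values below are counts scaled to a common total per library after TMM normalization over the 15 libraries. Between 39 and 43 of the 43 genes had counts in a library, and 36 had counts in all 15 libraries. The summed level of the 43 genes was 2618 to 3677 CPM in WT endosteal, 3095 to 3420 CPM in WT central, 3183 to 3307 CPM in Gfra2-/- endosteal and 3106 to 3325 CPM in Gfra2-/- central libraries. The 4 ranges overlap, and the total RNA of the machinery was thus spread most among the WT endosteal libraries. Sqstm1, Gabarap, Map1lc3b and Gabarapl1 together held 33.7% of that level. In a bulk pool, a lower level in each cell and fewer cells that express a gene cannot be told apart.

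**Figure D1:**
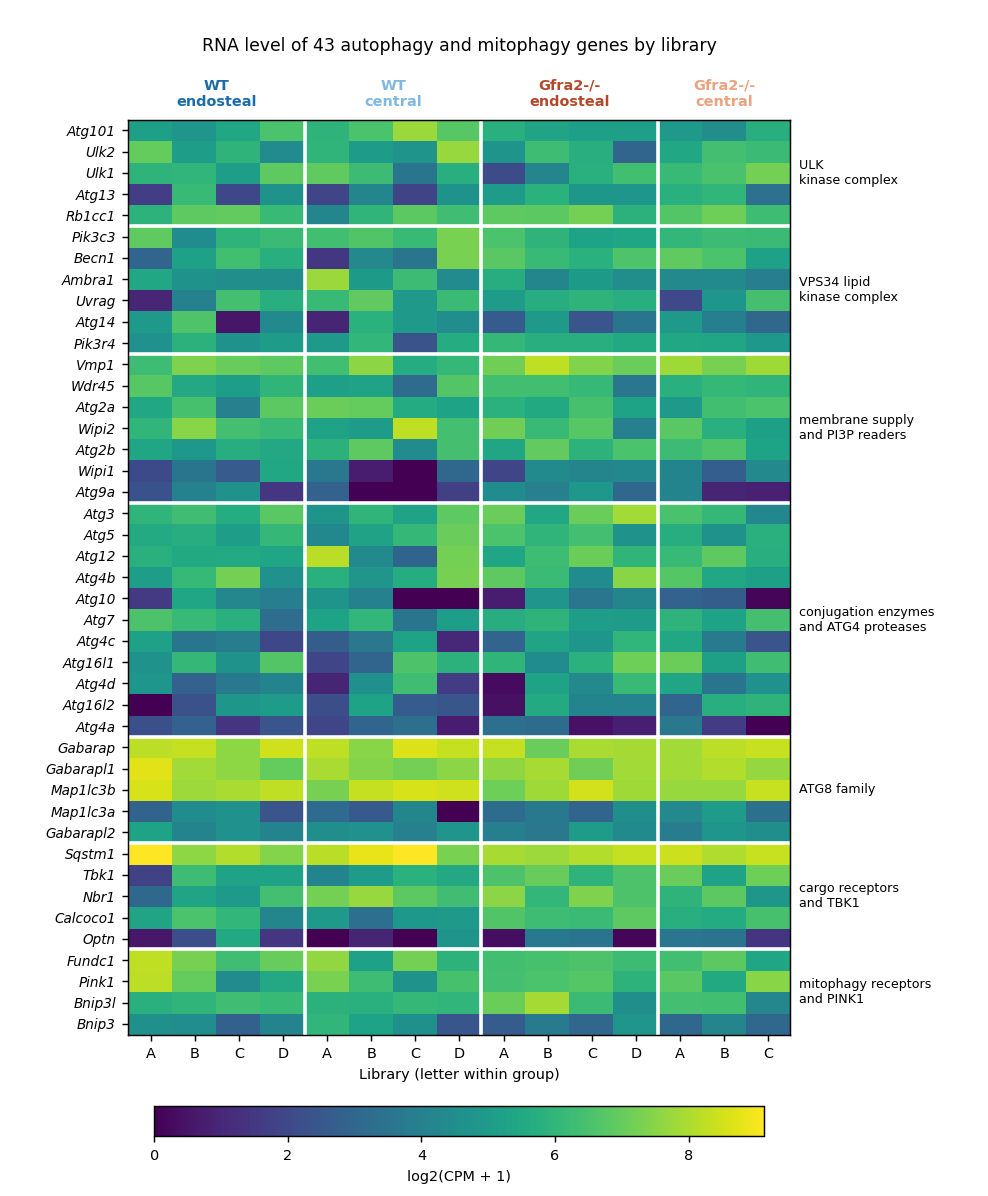
Heat map of the level of the 43 genes (rows, grouped by role and ordered within a role by mean CPM per kb) in 15 libraries (columns, letters within the 4 groups). Colour gives log2(CPM + 1). The rows of Gabarap, Gabarapl1, Map1lc3b and Sqstm1 are bright in every library, and many other rows change from library to library within a group.

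Compared per kilobase of exon, the order of the roles was led by genes that end up on or next to the autophagosome membrane. Gabarap had the highest mean over the 15 libraries, at 151 CPM per kb, followed by Gabarapl1 at 108 and Sqstm1 at 92.4 CPM per kb. Fundc1 (47.9 CPM per kb), Atg101 (39.2), Vmp1 (38.4), Pink1 (37.8), Map1lc3b (36.1) and Atg3 (26.5) came next. The lowest were Atg9a at 1.66, Atg4a at 1.70 and Optn at 2.21 CPM per kb. Exon length was the union of all annotated exons of a gene, so genes with long or rare isoforms may rank lower. Map1lc3b had a mean of 271 CPM over 7517 exon bases, and Gabarap had 279 CPM over 1844 exon bases. The order between genes, and the highest gene of each role, rest on these lengths. Some levels are uncertain because reads that matched several places in the genome were dropped before counting. Of the 50-base stretches of Atg4a, 51.2% also occur in its pseudogene Atg4a-ps or in other genes, and for Bnip3 47.2% and for Bnip3l 20.8% do. Counting ignored strand, and 43.9% of the exon bases of Becn1 lie in exons of Cntd1 and 32.6% of those of Atg9a in exons of neighbouring genes. For Gabarapl1 this share was 28.3%, in 1700101I11Rik, for Atg4d 19.3%, in Kri1, and for Sqstm1 17.3%, in Mrnip. Reads from these stretches that also match exons of the neighbour were left unassigned, so the levels of these genes may be too low.

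Genes of lower level tended to vary more between libraries of 1 group. The SD of log2(CPM + 1) within groups, pooled over the 4 groups, had a median of 1.06 over the 43 genes and of 1.07 over the 15416 genes tested across all libraries. These sets differ in level, with a median of the mean log2(CPM + 1) of 5.61 over the 43 genes and 4.05 over all tested genes. The SD medians were not matched for level. Gabarap (SD 0.43), Gabarapl1 (0.45), Map1lc3b (0.49) and Gabarapl2 (0.50) had the smallest spread, so that ATG8 genes held the first 4 places among the 43 genes. The remaining ATG8 gene, Map1lc3a, had an SD of 1.18. Vmp1 (0.56), Sqstm1 (0.58) and Atg101 (0.64) followed. Atg16l2 (1.96), Optn (1.95), Atg4d (1.91) and Atg10 (1.91) had the largest, and 29 of the 43 genes differed by over 10-fold between their lowest and highest library or were at 0 in at least 1. These are pools of 30 cells amplified by PCR without molecular identifiers, and how much of this spread is biological was not tested.

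**Figure D2:**
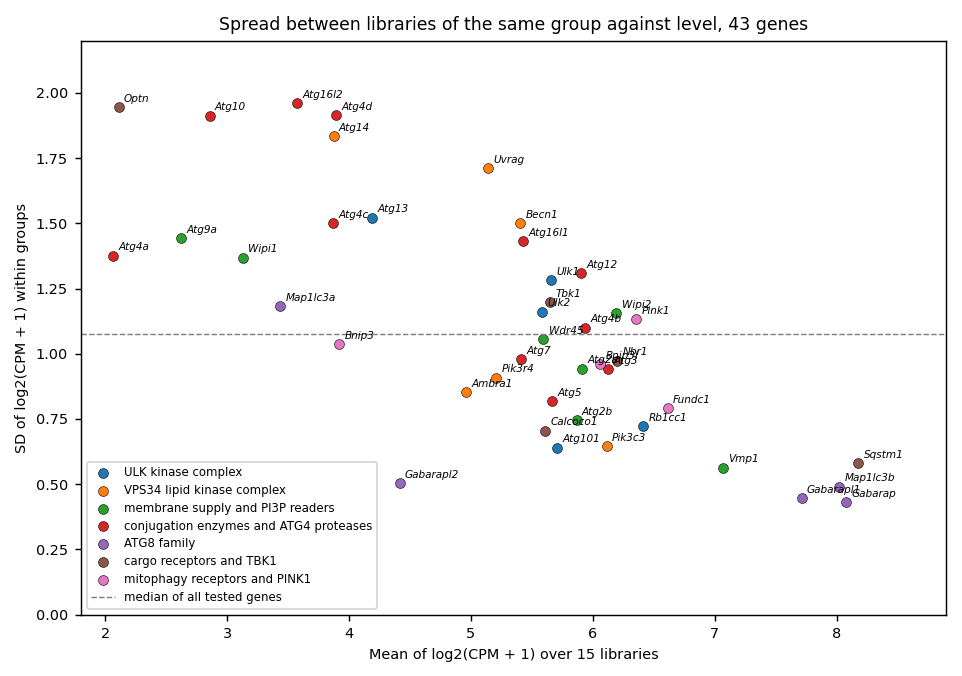
SD of log2(CPM + 1) within groups (y axis) against mean log2(CPM + 1) over 15 libraries (x axis), 1 point per gene, coloured by role. The dashed line is the median SD of all tested genes, 1.07. Of the 5 ATG8 genes, 4 lie at about 0.50 or lower, and Map1lc3a lies above the line at 1.18.

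Differences were tested with edgeR between pairs of groups, for compartment within each genotype and for genotype within each compartment. The study used these groups to ask whether the self-renewal programme of HSCs is altered in Gfra2-/- mice. No gene of the 43 passed an FDR of 0.1 in any of the 4 comparisons, nor for the interaction of genotype and compartment.

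Between endosteal and central WT HSCs, 0 of 42 tested genes passed (0% of all 11181 genes tested did), and 22 had a positive and 20 a negative log2 fold change, where 51.5% of all genes had a positive one. At an unadjusted p under 0.05 there were 2, Nbr1 and Atg101, both lower in endosteal HSCs, against 7.89% of all genes. DESeq2 called 0, against 1.97% of all genes, and in 0 genes the groups did not overlap, against 6.36% of all genes. The median log2 fold change was 0.04 for the 43-gene list and 0.03 for all genes.

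Between endosteal and central HSCs labelled Gfra2-/-, 0 of 43 passed (0% of all 13860 genes), with 23 positive and 20 negative log2 fold changes (51.6% of all genes were positive). At an unadjusted p under 0.05 there were also 0, against 4.79% of all genes, and DESeq2 called 0, against 1.22%. In 1 gene, Pik3r4, the groups did not overlap, against 7.34% of all genes. The median was 0.01 for the list and 0.03 for all genes.

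Between central HSCs labelled Gfra2-/- and central WT HSCs, 0 of 42 passed (0.051% of all 11772 genes), with 17 positive and 25 negative log2 fold changes (51.4% of all genes were positive). At an unadjusted p under 0.05 there were 2, Atg101 and Ambra1, both lower in the libraries labelled Gfra2-/-, against 8.73% of all genes. DESeq2 called the same 2 genes, Atg101 and Ambra1, at an FDR of 0.1, and 3.59% of all genes. The groups did not overlap in 3 genes, Calcoco1, Atg101 and Ambra1, against 12.4% of all genes. The median was -0.08 for the list and 0.03 for all genes. The list's median turned to 0.04 and 0.07 without library C or D of WT central, to 0.11 without library C of Gfra2-/- central, and to 0.28 with only libraries of at least 0.5% spike-in reads.

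Between endosteal HSCs labelled Gfra2-/- and endosteal WT HSCs, 0 of 43 passed (0% of all 12970 genes), with 22 positive and 21 negative log2 fold changes (51.5% of all genes were positive). At an unadjusted p under 0.05 there were 2, Nbr1 higher and Fundc1 lower in the libraries labelled Gfra2-/-, against 6.69% of all genes. DESeq2 called 0, against 1.09%, and in 0 genes the groups did not overlap, against 6.24%. The median was 0.14 for the list and 0.03 for all genes, and it was -0.11 without library B of Gfra2-/- endosteal.

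The interaction, which is the endosteal-minus-central difference in HSCs labelled Gfra2-/- minus that in WT HSCs, passed in 0 of 43 genes (0% of all 15416), with 21 positive and 22 negative values (46.3% of all genes were positive). At an unadjusted p under 0.05 there were 2, Nbr1 and Ambra1, both positive, against 6.97% of all genes, and DESeq2 called 0, against 1.15%. The shares of these genes were thus under or near those of all genes in each comparison.

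A test that misses the threshold does not show that levels were alike, and the intervals were wide. The median SE of a log2 fold change over the list was 0.77 in the WT comparison, 0.66 between the compartments of Gfra2-/-, 0.77 between genotypes in central and 0.65 in endosteal HSCs. The 95% interval lay within a 4-fold change in either direction for 18 of 42, 24 of 43, 14 of 42 and 22 of 43 genes, in the same order. It lay within a 2-fold change for 2, 6, 1 and 3 genes.

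**Figure D3:**
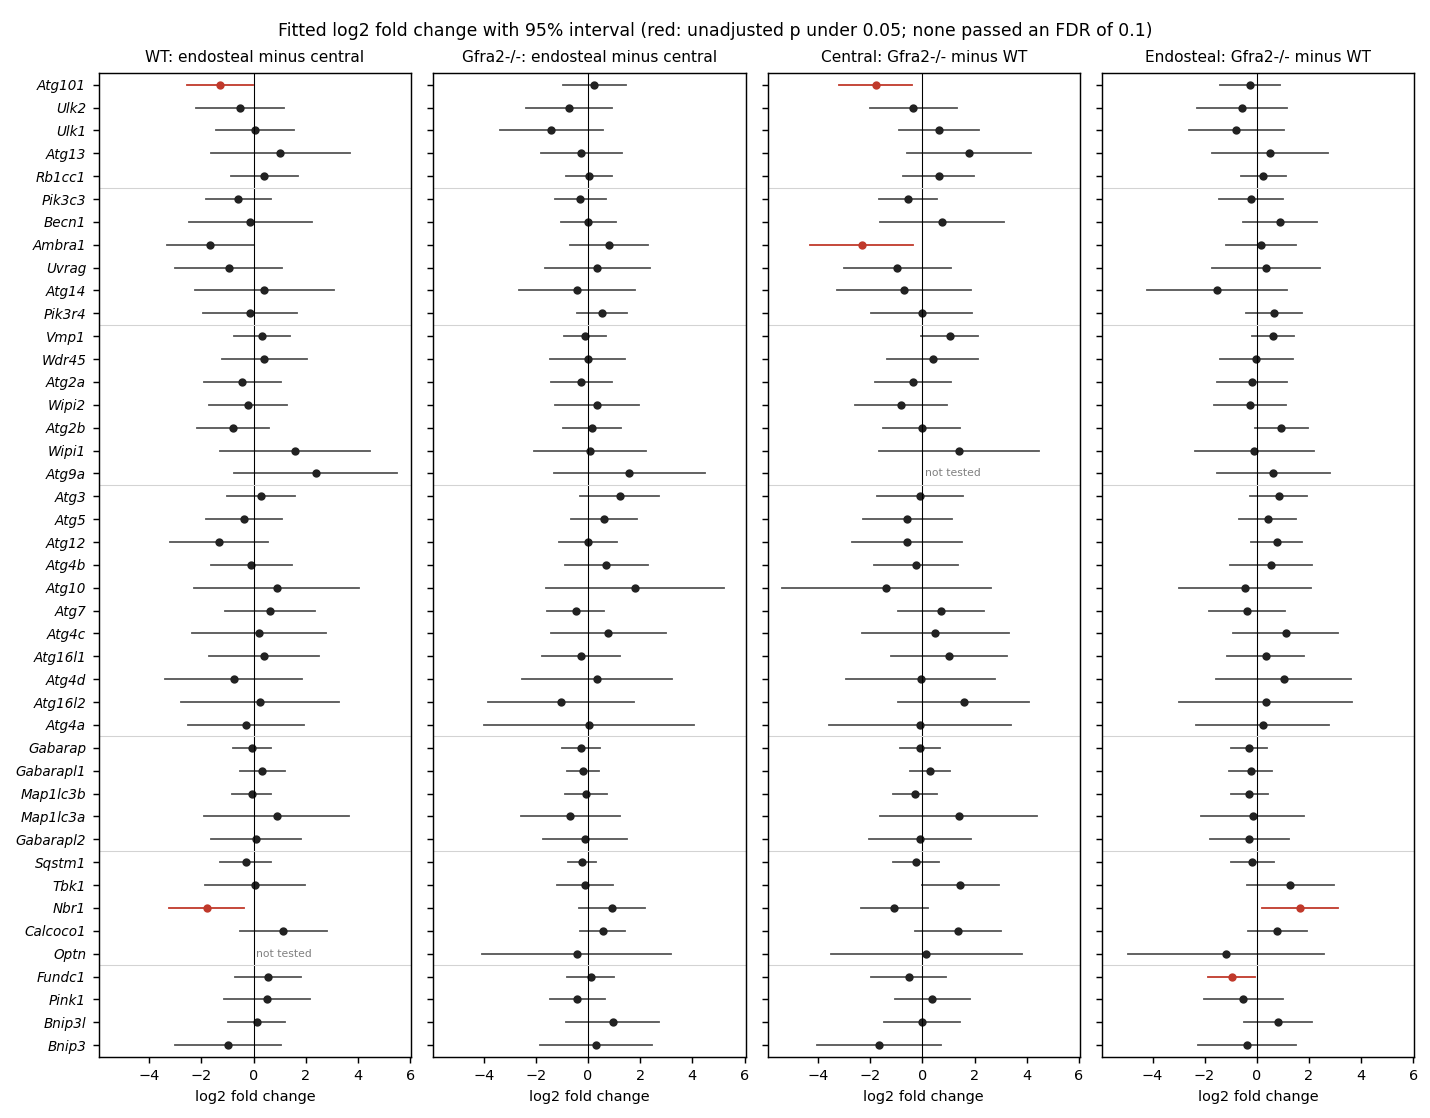
Fitted log2 fold change (points) and 95% interval (lines) of the 43 genes in the 4 comparisons, in the row order of the heat map. Red marks an unadjusted p under 0.05, which 6 of the 170 tests reached, and the widest intervals belong to Atg9a, Atg10, Optn and Atg4a, which are low genes.

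In the ULK kinase complex, which starts autophagy, Atg101 stood out. It encodes a subunit that stabilises ATG13 and lies on chromosome 15 at 101284272 to 101290945 (GRCm38). Atg101 was at 34.8, 26.3, 44.1 and 91.6 CPM in WT endosteal libraries A to D and at 59.7, 92.0, 216 and 107 CPM in WT central libraries. In libraries labelled Gfra2-/- it was at 54.2, 39.9, 34.8 and 34.7 CPM in endosteal and at 28.7, 22.03 and 52.9 CPM in central HSCs. The WT central group was thus the high one, and all 3 central libraries labelled Gfra2-/- lay under all 4 WT central libraries. The log2 fold change between genotypes in central HSCs was -1.80 ± 0.64 (SE), with an unadjusted p of 0.016 and an FDR of 0.441 in edgeR and an FDR of 0.073 in DESeq2. With 1 library left out it was -2.27 to -1.35 in edgeR. Between the WT compartments it was -1.29 ± 0.59, with an FDR of 0.626 in edgeR and overlapping groups.

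ULK1 is the kinase of the complex, ULK2 its homologue, and RB1CC1 and ATG13 are its scaffold and regulator. Ulk1 was at 61.2, 64.0, 33.2 and 115 CPM in WT endosteal and at 120, 76.2, 10.7 and 52.9 CPM in WT central libraries. It was at 3.38, 16.7, 55.0 and 81.5 CPM in endosteal and at 71.2, 90.8 and 150 CPM in central libraries labelled Gfra2-/-. The 2 latter groups overlapped, and the log2 fold change between them was -1.41 ± 0.87 with an FDR of 0.999 in edgeR. Rb1cc1 had a mean of 68.1 to 109 CPM in the 4 groups. Atg13 was lowest in WT central libraries, at 11.9 ± 10.97 CPM (SD, n = 4), and highest in Gfra2-/- central libraries, at 42.7 ± 29.03 CPM (SD, n = 3), a difference that did not pass (edgeR, unadjusted p = 0.131).

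In the VPS34 complex, Ambra1 had the second unadjusted p under 0.05 between the central groups. AMBRA1 links the ULK and VPS34 complexes, and its gene lies on chromosome 2 at 91730134 to 91918849. Ambra1 was at 42.4, 24.1, 21.7 and 21.7 CPM in WT endosteal libraries and at 217, 30.5, 75.1 and 20.2 CPM in WT central libraries. It was at 51.2, 17.5, 30.4 and 21.6 CPM in endosteal and at 18.6, 19.1 and 14.1 CPM in central libraries labelled Gfra2-/-. Library A of WT central, with 1230252 reads on genes, was far above the others, and the closest pair between the 2 central groups was 20.2 against 19.1 CPM. The log2 fold change between genotypes in central HSCs was -2.33 ± 0.90 (edgeR FDR = 0.483, DESeq2 FDR = 0.081). Without library A of WT central it was -1.29 (edgeR FDR = 0.718), and DESeq2 no longer called it (FDR = 0.468).

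Neither call by DESeq2 held with every library left out in turn. With each of the 7 central libraries left out in turn, the DESeq2 test called 0 to 4 of the 43 genes. Atg101 was called without library A, B or D of WT central or library C of Gfra2-/- central, and not without library C of WT central or library A or B of Gfra2-/- central, and Ambra1 was called only without library B or D of WT central.

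Becn1 encodes Beclin 1, the subunit that nucleates the VPS34 complex. Becn1 was at 6.82, 36.6, 82.7 and 52.9 CPM in WT endosteal and at 1.81, 18.7, 10.7 and 158 CPM in WT central libraries. In libraries labelled Gfra2-/- it was at 109, 70.3, 55.5 and 98.0 CPM in endosteal and at 118, 93.6 and 36.7 CPM in central HSCs. The value of 158 CPM belongs to library D of WT central, the library with neutrophil RNA, and the part of that RNA in it was not tested. Between genotypes the log2 fold change was 0.90 ± 0.64 in endosteal and 0.75 ± 1.09 in central HSCs, with unadjusted p of 0.188 and 0.507 in edgeR.

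Pik3c3 encodes the lipid kinase VPS34 itself and had the highest level of its role per kilobase. Its mean was 68.5 ± 40.7 CPM in WT endosteal (SD, n = 4), 102 ± 37.9 in WT central (n = 4), 58.3 ± 25.1 in Gfra2-/- endosteal (n = 4) and 71.5 ± 5.49 in Gfra2-/- central libraries (n = 3), and the 4 ranges overlapped. Pik3r4, the kinase's regulatory subunit, was at 66.2, 52.8, 53.9 and 45.7 CPM in endosteal and at 43.9, 40.6 and 28.6 CPM in central libraries labelled Gfra2-/-. These 2 groups did not overlap, with 45.7 against 43.9 CPM as the closest pair, and the log2 fold change was 0.54 ± 0.43 (edgeR, unadjusted p = 0.243, FDR = 0.999). Atg14 and Uvrag, which define alternative forms of the complex, had SDs of log2(CPM + 1) of 1.83 and 1.71 within groups.

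Among the genes for membrane supply and PI3P reading, Vmp1 was the most abundant per kilobase. VMP1 is a lipid scramblase of the endoplasmic reticulum from which the autophagosome membrane grows. Vmp1 was at 78.0, 164, 128 and 116 CPM in WT endosteal and at 81.5, 186, 49.6 and 66.4 CPM in WT central libraries. It was at 142, 309, 167 and 130 CPM in endosteal and at 226, 154 and 227 CPM in central libraries labelled Gfra2-/-. In each compartment the mean was higher in the libraries labelled Gfra2-/- and the groups overlapped. The log2 fold change between genotypes was 1.05 ± 0.50 in central (edgeR, unadjusted p = 0.059, FDR = 0.591) and 0.62 ± 0.36 in endosteal HSCs (unadjusted p = 0.111, FDR = 0.784). Without library B of Gfra2-/- endosteal, the endosteal value was 0.26.

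ATG2B transfers lipid to the growing membrane. Atg2b was at 40.7, 27.9, 50.9 and 44.8 CPM in WT endosteal and at 41.1, 120, 59.4 and 93.6 CPM in Gfra2-/- endosteal libraries, with 3 of the 4 latter above all WT values. Its log2 fold change was 0.94 ± 0.46 (edgeR, unadjusted p = 0.067, FDR = 0.748). In central HSCs its mean was 69.7 CPM in WT libraries and 70.6 CPM in libraries labelled Gfra2-/-. Atg9a, for the membrane protein that seeds the autophagosome, was at 3.90, 15.1, 25.1 and 1.72 CPM in WT endosteal libraries and at 6.34, 0, 0 and 2.36 CPM in WT central libraries, which had 7, 0, 0 and 7 counts. It had the largest log2 fold change of the list in the WT comparison, 2.38 ± 1.44, and the groups overlapped (edgeR FDR = 0.705). In libraries labelled Gfra2-/- the mean of Atg9a was 17.8 CPM in endosteal and 5.99 CPM in central HSCs. Wipi2, Wdr45 and Atg2a had group means of 45.4 to 115 CPM, and Wipi1 of 4.95 to 15.3 CPM.

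The conjugation enzymes and the ATG4 proteases form the largest role, with 11 genes. Atg3, the enzyme that joins ATG8 proteins to lipid, was at 61.7, 78.9, 50.1 and 111 CPM in WT endosteal and at 25.3, 61.9, 37.5 and 116 CPM in WT central libraries. It was at 131, 42.9, 132 and 231 CPM in endosteal and at 89.5, 67.2 and 18.1 CPM in central libraries labelled Gfra2-/-. Within the Gfra2-/- label, 3 of 4 endosteal libraries lay above all central ones, and the log2 fold change of 1.21 ± 0.66 was the one with the smallest p of that comparison (edgeR, unadjusted p = 0.102, FDR = 0.999), and it was 0.77 to 1.65 with 1 library left out. In endosteal HSCs 9 of the 11 genes had a positive log2 fold change between genotypes, with a median of 0.42, and in central HSCs 4 of 11 had one, with a median of -0.09, and 0 of the 11 passed in either. Atg5 and Atg7, both needed for conjugation, had group means of 43.3 to 66.4 CPM and of 36.6 to 61.3 CPM. Atg10, Atg4a, Atg4c, Atg4d and Atg16l2 had means over all libraries of 4.52 to 24.5 CPM.

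In the ATG8 family, 4 of the 5 genes had the smallest spread of the 43 genes, and Map1lc3a, at a lower level, did not (SD 1.18). Gabarap, on chromosome 11 at 69991143 to 69994951, was at 299, 319, 193 and 360 CPM in WT endosteal and at 309, 180, 401 and 318 CPM in WT central libraries. It was at 322, 133, 250 and 241 CPM in endosteal and at 234, 296 and 327 CPM in central libraries labelled Gfra2-/-. All 4 groups overlapped. The 4 log2 fold changes of Gabarap were -0.07 between the WT compartments, -0.27 between those of Gfra2-/-, -0.10 between genotypes in central and -0.30 in endosteal HSCs, with SEs of 0.31 to 0.35.

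Map1lc3b encodes LC3B, the ATG8 protein whose lipid form is the usual marker of autophagosomes. Map1lc3b was at 385, 223, 248 and 307 CPM in WT endosteal and at 151, 321, 382 and 352 CPM in WT central libraries. It was at 137, 225, 363 and 225 CPM in endosteal and at 210, 209 and 328 CPM in central libraries labelled Gfra2-/-. The groups overlapped, and the 95% interval of its log2 fold change was -0.82 to 0.67 between the WT compartments and -0.999 to 0.43 between genotypes in endosteal HSCs. Gabarapl1 had group means of 191 to 243 CPM, Gabarapl2 of 19.2 to 23.6 CPM and Map1lc3a of 7.64 to 19.9 CPM. All 5 genes had a negative log2 fold change in endosteal libraries labelled Gfra2-/-, both against central libraries of that label (median -0.21) and against WT endosteal libraries (median -0.28), and 0 of 5 passed in either. These 2 comparisons share the endosteal libraries labelled Gfra2-/-.

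**Figure D4:**
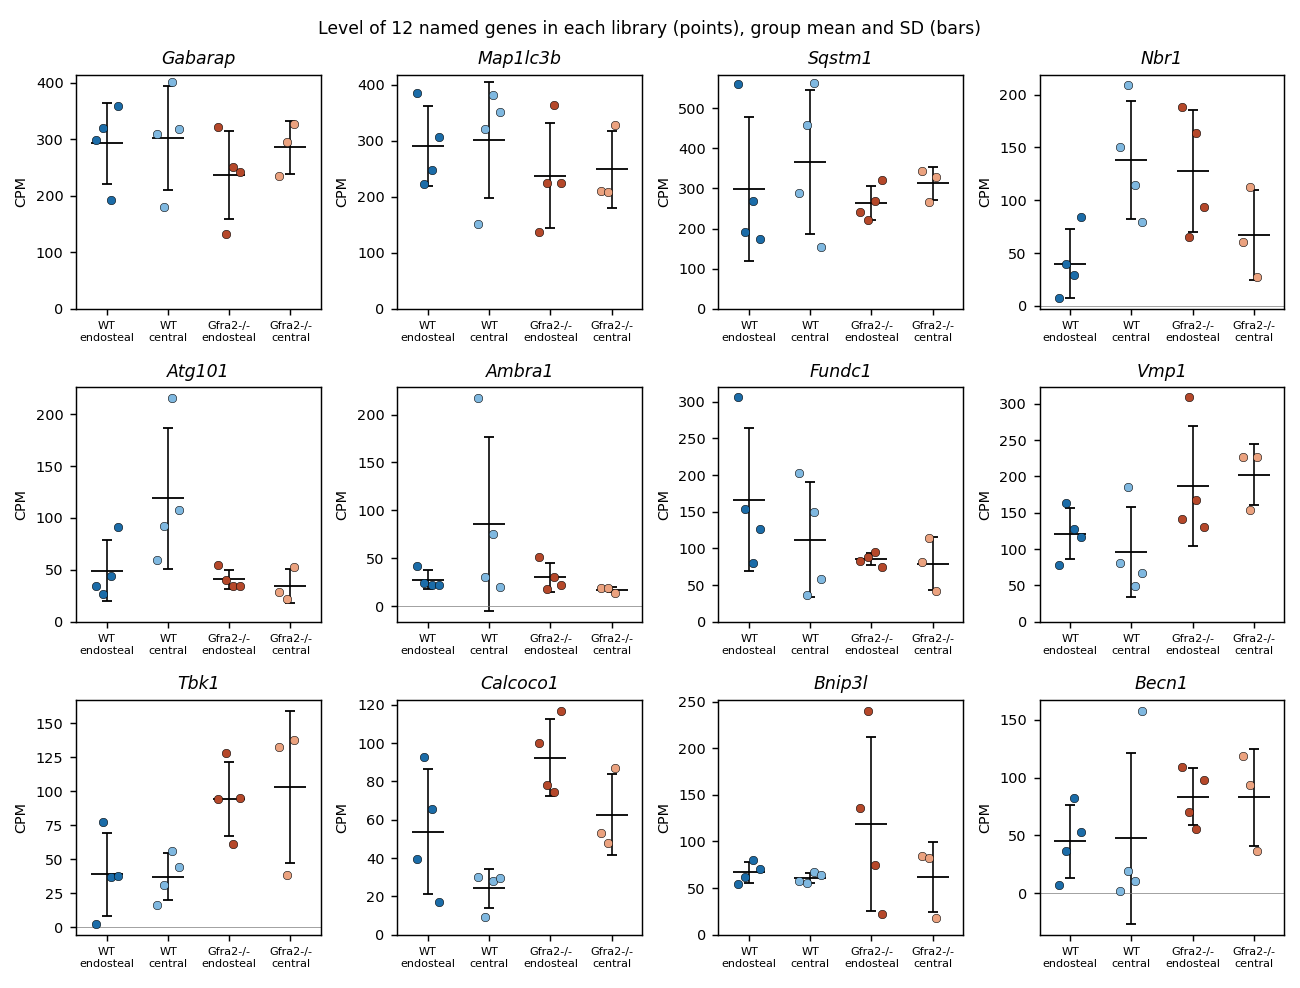
Level in CPM (y axis, linear) of 12 genes in each library (points), with the group mean and SD (bars), for the 4 groups on the x axis. By group mean, Nbr1 is lowest in WT endosteal and Atg101 highest in WT central libraries. For Nbr1, WT endosteal overlaps with each other group. For Atg101, WT central overlaps with WT endosteal and lies above both groups labelled Gfra2-/-. The ranges of the 4 groups overlap for Gabarap, Map1lc3b and Sqstm1.

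Among the cargo receptors, Sqstm1 was the most abundant, and Nbr1 had the smallest p in each test but that between genotypes in central HSCs, where Tbk1 had it. SQSTM1, also called p62, binds ubiquitinated cargo and is itself degraded by autophagy, and its RNA rises in oxidative stress. Sqstm1 was at 561, 190, 268 and 175 CPM in WT endosteal and at 289, 459, 562 and 155 CPM in WT central libraries. It was at 242, 221, 269 and 321 CPM in endosteal and at 345, 267 and 329 CPM in central libraries labelled Gfra2-/-. The libraries labelled Gfra2-/- lay within the range of the WT libraries, and the 4 log2 fold changes were between -0.30 and -0.17, with SEs of 0.24 to 0.46.

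NBR1 is a receptor related to p62, and its gene lies on chromosome 11 at 101552149 to 101581951. Nbr1 was at 7.31, 39.3, 29.3 and 84.4 CPM in WT endosteal libraries and at 150, 209, 114 and 79.2 CPM in WT central libraries. It was at 188, 65.0, 163 and 93.9 CPM in endosteal and at 60.9, 112 and 27.7 CPM in central libraries labelled Gfra2-/-. WT endosteal was the low group, and in each comparison 1 or more libraries overlapped: library D of WT endosteal, at 84.4 CPM, lay above library D of WT central and library B of Gfra2-/- endosteal. Between the WT compartments its log2 fold change was -1.80 ± 0.67 (edgeR, unadjusted p = 0.018, FDR = 0.559). Between genotypes in endosteal HSCs it was 1.67 ± 0.66 (edgeR, unadjusted p = 0.029, FDR = 0.737), and these 2 comparisons share the WT endosteal libraries. Between the compartments of Gfra2-/- it was 0.93 ± 0.55 (edgeR, unadjusted p = 0.129, FDR = 0.999), and 0.56 to 1.54 with 1 library left out. Between genotypes in central HSCs it was -1.07 ± 0.58 (edgeR, unadjusted p = 0.090, FDR = 0.646). The interaction was 2.71 ± 0.92 (edgeR, unadjusted p = 0.009, FDR = 0.539; DESeq2 FDR = 0.111).

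Calcoco1, for a receptor of the endoplasmic reticulum, was at 39.2, 92.7, 65.7 and 17.2 CPM in WT endosteal and at 29.9, 9.02, 28.2 and 29.3 CPM in WT central libraries. It was at 100, 78.3, 74.5 and 117 CPM in endosteal and at 53.0, 47.9 and 87.1 CPM in central libraries labelled Gfra2-/-. All central libraries labelled Gfra2-/- lay above all WT central libraries, and the log2 fold change was 1.36 ± 0.75 (edgeR, unadjusted p = 0.096, FDR = 0.653). Between the compartments of Gfra2-/- it was 0.56 ± 0.38 (FDR = 0.999).

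TBK1 phosphorylates cargo receptors and is better known for interferon induction. Tbk1 was at 2.44, 77.6, 37.3 and 38.05 CPM in WT endosteal and at 16.3, 31.1, 56.3 and 44.5 CPM in WT central libraries. It was at 94.3, 128, 61.0 and 94.98 CPM in endosteal and at 133, 38.6 and 138 CPM in central libraries labelled Gfra2-/-. In each compartment 1 library labelled Gfra2-/- lay within the WT range. Between genotypes the log2 fold change was 1.46 ± 0.68 in central (edgeR, unadjusted p = 0.054, FDR = 0.578) and 1.28 ± 0.75 in endosteal HSCs (unadjusted p = 0.119, FDR = 0.790). Optn, for the receptor optineurin, had 0 to 508 counts in a library, a median of 1.72 CPM and a highest value of 46.2 CPM, and was not tested between the WT compartments.

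Among the mitophagy genes, Fundc1 was the most abundant per kilobase. FUNDC1 is a receptor of the outer mitochondrial membrane that acts in hypoxia, and its gene lies on chromosome X at 17556564 to 17572325. Fundc1 was at 306, 153, 79.6 and 127 CPM in WT endosteal and at 203, 36.1, 150 and 58.3 CPM in WT central libraries. It was at 82.6, 87.8, 94.4 and 75.0 CPM in endosteal and at 81.0, 114 and 41.7 CPM in central libraries labelled Gfra2-/-. In endosteal HSCs 3 of 4 WT libraries lay above all libraries labelled Gfra2-/-, and library C of WT endosteal lay among them. This log2 fold change was -0.96 ± 0.40 (edgeR, unadjusted p = 0.037, FDR = 0.737), and -0.51 without library A of WT endosteal.

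BNIP3L, also called NIX, is the receptor that removes mitochondria from maturing red cells and also acts in hypoxia. Bnip3l was at 54.8, 61.8, 80.1 and 70.9 CPM in WT endosteal and at 57.0, 55.0, 67.0 and 64.4 CPM in WT central libraries. It was at 136, 241, 74.8 and 22.5 CPM in endosteal and at 84.7, 81.8 and 17.98 CPM in central libraries labelled Gfra2-/-. The 8 WT libraries lay close together, and those labelled Gfra2-/- spread to both sides of them, with log2 fold changes between genotypes of 0.82 ± 0.59 in endosteal and -0.02 ± 0.67 in central HSCs (edgeR, unadjusted p = 0.190 and 0.978). The 9 erythroid markers summed to 74.3, 174, 30.9 and 683 CPM in the endosteal and to 66.9, 47.1 and 143 CPM in the central libraries labelled Gfra2-/-, and to 31.7 to 112 CPM in the WT libraries. The library with the highest erythroid sum thus had the lowest Bnip3l of its group, and the part of erythroid RNA in Bnip3l was not tested. Of the 6 erythroid markers tested, 5 had a positive log2 fold change in endosteal against central HSCs labelled Gfra2-/-, and 0 passed an FDR of 0.1 in edgeR. DESeq2 gave an FDR to 3 of them and called 1, Klf1, against 1.22% of all genes. Between genotypes in endosteal HSCs, 4 of 6 tested markers were positive and 2 negative. At an unadjusted p under 0.05 in edgeR 3 were higher, against 6.69% of all genes, and 0 passed an FDR of 0.1 in edgeR or DESeq2. Pink1, the kinase that marks damaged mitochondria, had group means of 85.2 to 123 CPM, and Bnip3 of 10.4 to 32.4 CPM, with 0 of 4 comparisons past the threshold for either.

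The rest of the pathway was covered by 3 further lists, with 14 genes of the fusion of autophagosomes with lysosomes, 23 further receptors and regulators, and 18 genes of upstream control (MiT/TFE and FOXO factors, AMPK and mTORC1). In edgeR 0 of their genes passed an FDR of 0.1 in any comparison. At an unadjusted p under 0.05, the WT comparison had 0 higher and 1 lower of 14 fusion genes, 1 higher and 0 lower of 21 tested receptors and regulators and 1 higher and 1 lower of 17 tested upstream genes, against 7.89% of all genes. Between the compartments of Gfra2-/- 1 of 23 receptors was higher, Rtn3, and 1 of 18 upstream genes lower, Foxo1, against 4.79% of all genes. Between genotypes 1 of 14 fusion genes was lower in central HSCs, Vamp8, against 8.73% of all genes. In endosteal HSCs 1 gene of each list was higher, namely Vps41 of 14, Rubcn of 22 and Trp53inp1 of 17, against 6.69% of all genes. For the interaction, Tecpr1 had a positive and Mul1 a negative value at that p, against 6.97% of all genes. The further receptors and regulators had a median log2 fold change of 0.56 in the WT comparison, 0.39 between the compartments of Gfra2-/-, 0.38 between genotypes in central and 0.37 in endosteal HSCs, where all genes had 0.03. In the same order the fusion genes had -0.08, 0.23, -0.13 and -0.14 and the upstream genes 0.00, 0.01, 0.08 and 0.23.

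DESeq2 called 1 of 14 tested fusion genes, 0 of 18 receptors and regulators and 1 of 16 upstream genes in the WT comparison, both lower in WT endosteal than in WT central HSCs, against 1.97% of all genes, and 0 in the other comparisons. The WT groups did not overlap in 2 fusion genes and 1 upstream gene, against 6.36% of all genes. Of the 2 fusion genes, 1 was higher and 1 lower in WT endosteal HSCs, and the upstream gene was lower. Tecpr1, a tether between autophagosome and lysosome, was at 7.07, 13.1, 13.2 and 15.6 CPM in WT endosteal and at 388, 128, 20.1 and 160 CPM in WT central libraries. In libraries labelled Gfra2-/- it was at 24.5, 39.5, 81.3 and 3.59 CPM in endosteal and at 73.8, 95.5 and 77.8 CPM in central HSCs. The WT groups did not overlap, with a log2 fold change of -3.85 ± 0.77 (edgeR, unadjusted p = 0.00023, FDR = 0.225; DESeq2 FDR = 1.4e-05). TFE3 is a transcription factor that activates lysosomal and autophagy genes. Tfe3 was at 1.22, 1.799, 7.996 and 18.2 CPM in WT endosteal and at 84.2, 81.1, 21.5 and 44.8 CPM in WT central libraries, which did not overlap (log2 fold change -3.001 ± 1.01, edgeR FDR = 0.483, DESeq2 FDR = 0.036). In libraries labelled Gfra2-/- Tfe3 was at 0.135, 30.5, 23.8 and 35.9 CPM in endosteal and at 27.3, 49.6 and 10.8 CPM in central HSCs, which overlapped.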

How the data were processed

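RNA-Seq counts of 15 libraries were used. The authors aligned single-end 50-base reads to GRCm38 with GSNAP, dropped reads with several alignments, counted reads per gene without strand with HTSeq (0.5.3p3) and deposited raw counts for 46078 genes, together with 92 spike-ins and 5 rows of unassigned reads. The last 2 kinds of row stayed out of library sizes and tests, and the unassigned rows held 54.6 to 80.3% of all reads. Columns were assigned to groups from the study's sample lists, and 1 column of per-sample values was not mapped and not used. Symbols and positions came from GENCODE M21. Here edgeR 4.0.16 (R 4.3.3) was fitted on all genes of the 2 groups compared, with filterByExpr and TMM. P-values of its quasi-likelihood test were adjusted after Benjamini-Hochberg, and a call needed an FDR under 0.1. All 15 libraries entered the interaction. DESeq2 1.42.0 was run on the same genes. SE is the log2 fold change over the root of F. The script was tested on simulated data.

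Members and lists were chosen with earlier results of these data known. Genes were picked by a rule: those past the FDR, the 4 smallest p per comparison and the highest per role by CPM per kb. Added to these were Map1lc3b, Sqstm1, Bnip3l and Becn1. The picked genes are given library by library, except Pik3c3, which is given by group means. Atg2b and Atg9a are given library by library in 2 groups each and by mean in the others. Other genes were named after their values were seen. Of the other lists, the 2 smallest p per comparison could be named. P-values measure the spread between these libraries; the study calls them biological replicates, and whether each came from its own animal is not stated. Counts cover counting error only, since PCR reads without identifiers are not independent molecules. The share of spike-in reads splits the libraries: those under 0.5% are 1 per group, which allows no test, and the remaining 11, and the split as a term in the fit, are alternatives. Alternatives were another test, scaling, filter, depth, threshold and library choice.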

Additional observations from a re-analysis of the deposited data

Results flagged for a closer look

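In groups of 4 libraries, a library was singled out where its gap to the nearest other was a larger part of the whole range than Dixon's 95% limit. Chance does so in about 1 of 20 groups, and 7 of the 72 groups tested (9.72%) met it. Among the 17 genes picked by the rule it was 3 of 51 groups, and the rest were sums of marker lists. Becn1 was at 157.7 CPM in library D of WT central against 18.7 CPM in the next, in the library with neutrophil RNA. Ambra1 was at 42.4 CPM in library A of WT endosteal against 24.1 CPM in the next. Calcoco1 was at 9.02 CPM in library B of WT central, under the next at 28.2 CPM.

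Of the marker lists, the neutrophil and monocyte genes summed to 3226 CPM in library D of WT central against 244 CPM in the next, with Elane and Mpo at 0, and to 32.2 CPM in library A of WT endosteal against 14.2 CPM. The lymphoid genes summed to 1852 CPM in library D of Gfra2-/- endosteal against 84.05 CPM in the next. The megakaryocyte genes summed to 765 CPM in library A of Gfra2-/- endosteal against 245 CPM. Without the 2 libraries D with neutrophil or lymphoid RNA, 0 of the 43 genes passed in edgeR in any comparison.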

How the results depend on the processing

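In edgeR 0 of the 43 genes passed in any comparison under every alternative run, including each library left out in turn (0 to 0 in all 5 results). DESeq2 called 2 in central HSCs between genotypes, and also 2 with no filter before it, an alternative chosen after seeing the data, and, likewise added later, 1, 4 and 3 without library A, B or D of WT central, 1 without library C of Gfra2-/- central and 0 without each of the other 3; in the other comparisons it called 0. With edgeR's TMM replaced by size factors from the spike-ins, the median over all genes moved from 0.03 to 1.58 in the WT comparison and from 0.03 to 1.75 between genotypes in central HSCs, and 5 log2 fold changes of single genes changed sign: in the WT comparison Nbr1 to 0.95, Atg101 to 0.93 and Ambra1 to 0.91, and in central HSCs Atg101 to 0.30 and Ambra1 to 0.55, all still below the median of all genes. The list's own median followed, at 1.46 and 1.37, and it turned from 0.01 to -0.50 and from 0.14 to -0.06 and was -1.95 between the compartments of Gfra2-/-, between genotypes in endosteal HSCs and for the interaction. With DESeq2 size factors the median of all genes was -0.08 in the WT comparison. With only libraries of over 1500000 reads on genes, which leaves 2 WT central libraries, Ambra1 in the WT comparison was 0.10. In these cases the cause was not tested. Leaving out the 2 Gfra2-/- endosteal libraries with 9 and 47 Gfra2 counts, also chosen after seeing the data, left 0 genes past the threshold, as did a term for libraries under 0.5% spike-in reads, added likewise. Depth was lowest in the WT central group, and Atg9a, Optn and Atg10 had 0 counts in 2 of its libraries, not always the shallowest ones. No paired analysis was possible because the table's columns carry no replicate number and the order of columns was not used to give them one. This limit came from that choice, since the study's sample titles do number the replicates of each group. The paper flushed long bones and then crushed them to obtain the 2 fractions, so endosteal and central pools may share animals. The tests treated all pools as independent, and the effect of pairing was not tested.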

Other observations

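The MiT/TFE factors bind the palindrome CACGTG, best as TCACGTGA, so the RefSeq promoter windows (250 bases before to 50 after the start, GRCm38.p6) of the 43 genes were searched for both; each reads the same on both strands, and the longer holds the shorter. Windows were at hand for 36 of the genes, not for Rb1cc1, Becn1, Pik3c3, Atg12, Atg16l1, Map1lc3a and Bnip3l. CACGTG was in the windows of 6 of 36 genes (16.7%), Atg3, Atg5, Atg7, Atg14, Bnip3 and Tbk1, against 8.09% of all 27025 genes, and TCACGTGA in that of 1 (2.78%), Atg3, against 1.12%. Atg3 holds CACGTG at 2 places, the second within TCACGTGA. Its stretches are shown 5′ to 3′ on the plus strand with the motif in capitals, beside that of Bnip3 on the minus strand as an example without the longer form. They lie on chromosome 16 at 45158725 to 45158750 and at 45158747 to 45158774, and on chromosome 7 at 138909599 to 138909624. A match is a description of letters and not evidence of binding, and factor binding was not measured.
Atg3, first: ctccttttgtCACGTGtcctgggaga
Atg3, second: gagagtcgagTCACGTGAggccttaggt
Bnip3: gcacgcgccgCACGTGccacacgctc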
